A study of Mus musculus with 16 samples.

Results

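CTCF binding that was listed in neural progenitor cells (NPCs) and in neither kind of mouse embryonic stem (ES) cell was examined across the genome. The regions were chosen by overlap of the 3 deposited CTCF peak lists: peaks overlapping by at least 1 bp were merged into 60688 regions, and a region was kept when it held an NPC peak and no peak of ES cells in 2i or in serum. This gave 1119 regions, called NPC-only regions here, which were 1.84% of all merged regions and 3.91% of the 28611 merged regions with an NPC peak (95% Wilson interval 3.69 to 4.14%). Membership was selected on the peak calls themselves, so all values of peak strength below describe the regions and test nothing.

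CTCF is a zinc-finger protein that binds a long DNA motif and, together with the cohesin ring complex, holds the bases of many chromatin loops and domain borders. Many of its sites are occupied in most cell types, and a smaller set varies between them, in part with DNA methylation of the motif. YY1 is another zinc-finger factor that can join enhancers to promoters.

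The ES cells were V6.5 cells, a male line of strain 129SvJae x C57BL/6, grown in 2i medium with LIF (inhibitors of the MEK and GSK3 kinases) or in serum with LIF, and moved from feeder layers to gelatin before fixation. The NPCs were isolated from whole brains of P1 mice of the same cross that carried Sox2-eGFP, grown as neurospheres and then plated on laminin. Each of the 3 conditions had 1 CTCF ChIP library, and 5C (chromosome conformation capture carbon copy, which counts ligations between restriction fragments of chosen loci) had 2 libraries each for ES cells in 2i, ES cells in serum, NPCs, NPCs with control siRNA and NPCs with YY1 siRNA. NPCs and ES cells differ in origin, animal and culture as well as in cell state, and these cannot be told apart.

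The 3 lists differed in length, with 56138 peaks in 2i, 50185 in serum and 28860 in NPCs. With 1 ChIP library per condition no difference in binding between cell types could be tested, and being absent from a list means only that no peak passed the authors' threshold there. The deposited values allow a view of that threshold. The fold enrichment and p-value of a peak together returned a whole number of fragments at the summit for 100% of NPC peaks and for 99.97% and 99.94% of peaks in 2i and serum, within 0.01 on the −log10 p scale. At the lowest local background the smallest pileup listed was 9 fragments in NPCs and 11 fragments in each ES list. At that background a p of 1e-08 was reached at 9 fragments in NPCs and at 10 in each ES library. A pileup of 12 fragments or less was found in 24 of 1119 members (2.14%). The limit rises with local background, so this count leaves out members near the threshold at a higher background. A member with 17 fragments at a background of 2.93, for example, had a −log10 p of 8.60. The median −log10 q was 16.8 in the members and 35.3 in the other regions of the NPC list.

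NPC-only regions were weak members of the NPC list. Their median fold enrichment was 10.3 (range 4.58 to 32.5), against 15.4 for the other 27492 regions of the list. This deposited value was read as the ratio of summit fragments to local background, with 1 added to each. The median NPC-only value lay at percentile 19.6 of the NPC list. The median summit pileup was 20 fragments (95% Poisson interval of such a count 12.2 to 30.9, counting error only), against 36 fragments in the other regions. Peaks were also narrower, with a median width of 152 bp against 209 bp.

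The share of regions that were NPC-only fell along the strength scale. It was 10.8% in the lowest decile of the NPC list by fold enrichment, 2.80% in the fifth decile and 0.0349% in the highest decile, which held 1 NPC-only region of 2862. Of 8010 regions with a fold enrichment of at least 20, 31 were NPC-only. The regions that NPCs shared with just one ES list had similar strength, with a median fold enrichment of 10.9 for the 641 shared with 2i and 11.04 for the 416 shared with serum. Low strength was thus shared with these regions and was not shown to be particular to NPC-only regions. The strength of regions without an NPC peak was not compared.

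**Figure D1:**
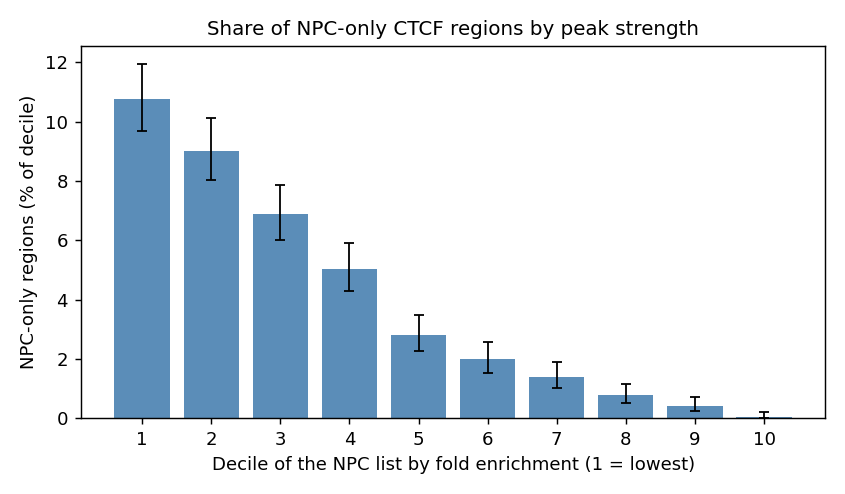
Share of NPC-only regions (y axis, % of regions) in each decile of the NPC list ordered by deposited fold enrichment (x axis); bars are shares and lines are 95% Wilson intervals. The share falls from 10.8% in the lowest decile to 0.0349% in the highest.

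The strongest NPC-only region was chr3:146446677-146446936 (mm9), with a fold enrichment of 32.5, a pileup of 55 fragments and rank 1047 in the NPC list. The nearest ES peak lay 82.6 kb away. The next was chr2:130644508-130644829, with a fold enrichment of 26.3 and an ES peak at 5.94 kb. Both chr7:66022674-66022910 and chr12:74809968-74810203 exceeded a fold enrichment of 25, at 25.5 and 25.2, and each had an ES peak within 4 kb, at 2.77 and 3.38 kb.

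The other 6 of the 10 strongest regions had fold enrichments from 22.9 to 24.4. They were chr5:111352464-111352703 at 24.4, chr11:31900232-31900510 at 24.3, a region of chromosome 18 at 23.6, chr3:67368751-67368965 at 23.2, chr11:22106728-22106927 at 23.1 and chr7:94734793-94735017 at 22.9. Among these 6, the nearest ES peak was between 3.19 kb and 50.4 kb away. No annotation of mm9 was used here, so neighbouring genes are not named.

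At the edges of the rule, the 3 weakest members had a −log10 p of 8.22, 8.25 and 8.60. The member closest to an ES peak, chr9:16305263-16305442 with a fold enrichment of 17.03, lay 4 bp from a serum peak. On the other side of the rule, the smallest overlap that kept an NPC peak out was 8 bp. An ES peak lay within 1000 bp of 82 members.

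Most NPC-only regions lay among other CTCF sites. The median distance to the nearest ES peak was 11.7 kb (quartiles 3.53 and 31.1 kb), and 509 of 1119 had one within 10 kb. They were more isolated than the rest of the NPC list: the median distance to the nearest merged region of any class was 10.9 kb, against 6.53 kb for other NPC-list regions. The distance varied little with strength. Other regions no stronger than the median NPC-only region lay 6.83 kb from their nearest neighbour, and NPC-only regions at or below and above their own median fold enrichment lay at 10.8 and 11.1 kb. Regions shared with 2i alone lay at 9.68 kb and those shared with serum alone at 10.7 kb, close to the NPC-only value.

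NPC-only regions were sparse, and a member had an NPC-only neighbour more often than other NPC-list regions did. Another NPC-only region was within 10 kb of 40 members, or 3.57% (2.64 to 4.83%), and within 10 kb of 1.56% (1.42 to 1.71%) of other NPC-list regions. The median distance to the next NPC-only region was 554 kb, against 651 kb from other NPC-list regions. Of the neighbours on either side of a member, 5.09% were NPC-only, while 1.84% of all regions were. Regions that NPCs shared with 2i alone were also more frequent among neighbours, at 1.61% against 1.06% of all regions. Those shared with serum alone were at 1.30% against 0.685%. A raised share among neighbours was thus not particular to NPC-only regions. Neighbouring regions share local chromatin and local background, so these intervals cover counting error only.

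**Figure D2:**
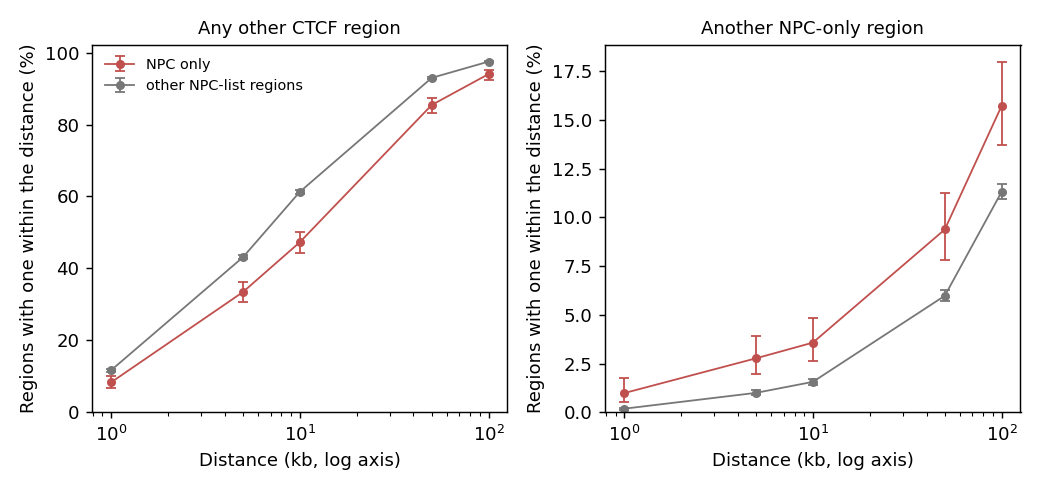
Share of regions (y axis, %) with any other CTCF region (left) or another NPC-only region (right) within 1, 5, 10, 50 and 100 kb (x axis, log scale), for NPC-only regions and other NPC-list regions; lines are 95% Wilson intervals. Within 10 kb, 47.3% of NPC-only and 61.3% of other regions had any neighbour, and 3.57% and 1.56% had an NPC-only one.

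With neighbours within 10 kb joined, 1079 members stood alone, 15 pairs formed, and there were 2 groups of 3 and 1 group of 4. The group of 4 spanned chr5:71483826-71487628, with fold enrichments of 8.92, 8.51, 8.22 and 6.89 and pileups of 21, 20, 15 and 16 fragments. No ES peak lay within 153774 bp of it, although each of its peaks was below the median strength of the members. The group at chr10:83111238-83123637 had fold enrichments of 11.5, 10.9 and 12.8, and a region of another class lay inside it. The group at chr7:149766131-149768054 spanned 1924 bp, with fold enrichments of 8.11, 11.8 and 9.82 and the nearest ES peak at 24207 bp.

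All 20 chromosomes with NPC-list regions held members. For 16 of them the 95% Wilson interval of the NPC-only share held the genome-wide 3.91%. The share was higher on chromosome 3 (5.26%, 4.22 to 6.53%), chromosome 14 (5.37%, 4.20 to 6.85%) and X (5.51%, 4.11 to 7.33%), and lower on chromosome 19 (2.54%, 1.68 to 3.81%). The low chromosome depended on the denominator. As a share of all merged regions, chromosome 19 was at 1.27% (0.841 to 1.92%), which held the genome-wide 1.84%. Chromosome 8 was then lower, at 1.24% (0.925 to 1.67%), and chromosomes 3, 14 and X stayed higher. These intervals were not adjusted for the 20 chromosomes looked at. In windows of 1 Mb the highest count was 5 members, reached on chromosomes 14 and 6.

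**Figure D3:**
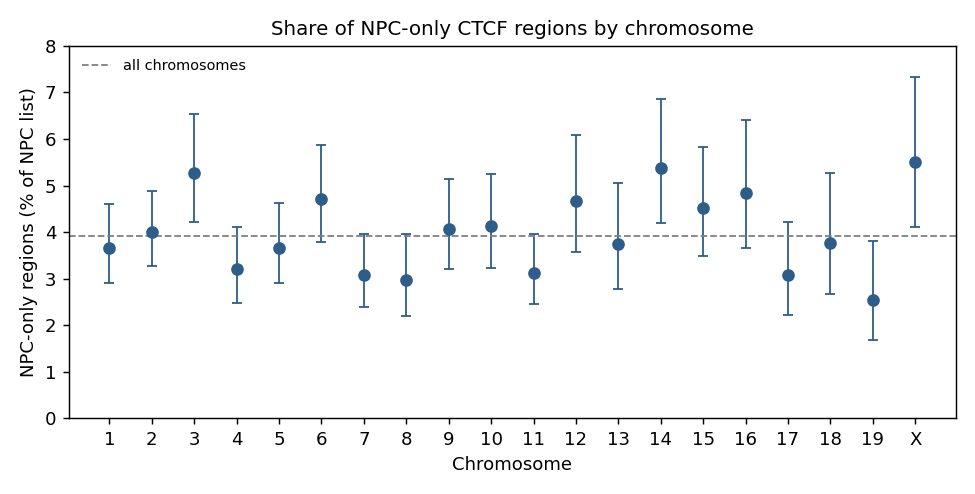
NPC-only regions as a share of NPC-list regions (y axis, %) on each chromosome (x axis), with 95% Wilson intervals; the dashed line is the share over all chromosomes, 3.91%. Chromosomes 3, 14 and X lie above it and chromosome 19 below it.

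The 5C data are a readout that the choice of regions did not use. The 7 loci cover 7228 kb and hold 429 merged CTCF regions, of which 5 were NPC-only: 1 each in the Sox2, Nestin and Klf4 loci and 2 in the Oct4 locus. Sox2 encodes a transcription factor of both ES cells and NPCs, Nestin an intermediate filament of neural progenitors, and Klf4 and Oct4 encode pluripotency factors. The regions were chr3:34186877-34187082 in the Sox2 locus (fold enrichment 13.9), chr3:87806621-87806987 in Nestin (10.7), chr4:55539380-55539535 in Klf4 (15.1), and chr17:35093364-35093543 (18.6) and chr17:36521871-36522005 (11.02) in Oct4. The Sox2 region and the second Oct4 region were alone in their 16 kb windows, while the other 3 windows also held CTCF regions of other classes, whose part in the contacts was not tested.

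Reads of 5C were added up in windows of 16 kb, and every window pair was tested with edgeR's quasi-likelihood test over all 15601 pairs of the untreated libraries. The fit took out a distance trend per library and locus, so a rise or fall is relative to that trend. Library totals were 11784821 and 14201950 counts in 2i, 26533530 and 25791222 in serum, and 14887963 and 14698138 in NPCs. Depth thus differed with condition, and its part in the number of pairs called in each comparison was not tested. In NPCs against ES cells in 2i, 64 of 407 pairs with an NPC-only region rose and 17 fell, beside 8.58% of all pairs rising and 8.53% falling, so rises made up 15.7% of the members' pairs and falls 4.18%. Against ES cells in serum, 82 rose (20.1%) and 20 fell (4.91%), beside 14.1% and 15.2% of all pairs. The median log2 fold change over the members' pairs was 0.22 against 2i and 0.26 against serum, beside 0.04 and -0.03 over all pairs. Pairs of 1 window are not independent, both comparisons share the NPC libraries, and only 5 windows are involved, so the counts describe these windows. Without ES 2i replicate 1 the called pairs against 2i went from 81 to 42, and without ES serum replicate 1 or 2 those against serum went from 102 to 61 or 51. The share called over all pairs dropped with them, to 8.24%, 16.7% and 14.6%.

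The windows differed among themselves. At the Sox2 region, 25 of 62 pairs (40.3%) rose and none fell against 2i, beside 15.0% rising and 13.6% falling over the locus. Against serum 7 rose (11.3%) and 8 fell (12.9%), fewer than the 17.6% and 18.4% of the locus. At the Nestin region, 25 of 65 pairs (38.5%) rose and 1 fell against 2i, beside 6.77% and 6.34% of the locus, and 19 (29.2%) rose and 5 (7.69%) fell against serum, beside 13.4% and 15.0%.

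At the Klf4 region the balance of rises and falls differed between the ES conditions. The 11 called falls against 2i all lay on 1 side of the window, from -592 to -32 kb. The 3 called rises lay on the other side, from 128 to 320 kb. Of the 407 pairs with an NPC-only region, 1 was called in opposite directions in the 2 comparisons. It was the Klf4 pair at -160 kb, with a log2 fold change of -0.94 against 2i and 1.20 against serum. Against 2i, 3 of 60 pairs (5.00%) rose and 11 (18.3%) fell, beside 9.07% and 8.37% of the locus, and against serum 29 (48.3%) rose and 1 fell, beside 9.92% and 10.03%. At the first Oct4 region 4 of 109 pairs (3.67%) rose and 4 fell against 2i, and 17 (15.6%) rose and 3 (2.75%) fell against serum. At the second Oct4 region 7 of 112 (6.25%) rose and 1 fell against 2i, and 10 (8.93%) rose and 3 (2.68%) fell against serum. Over the Oct4 locus 5.74% rose and 7.56% fell against 2i, and 12.9% and 14.4% against serum.

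Windows were also ordered within their locus by the share of called pairs, first against 2i and then against serum. The Sox2 window was number 14 and number 50 of 62, the Nestin window number 2 and number 15 of 66, and the Klf4 window number 13 and number 2 of 61. The first Oct4 window was number 81 and number 89 of 114, and the second number 82 and number 107. The Sox2 window and both Oct4 windows thus had a lower share of called pairs against serum than most windows of their loci.

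**Figure D4:**
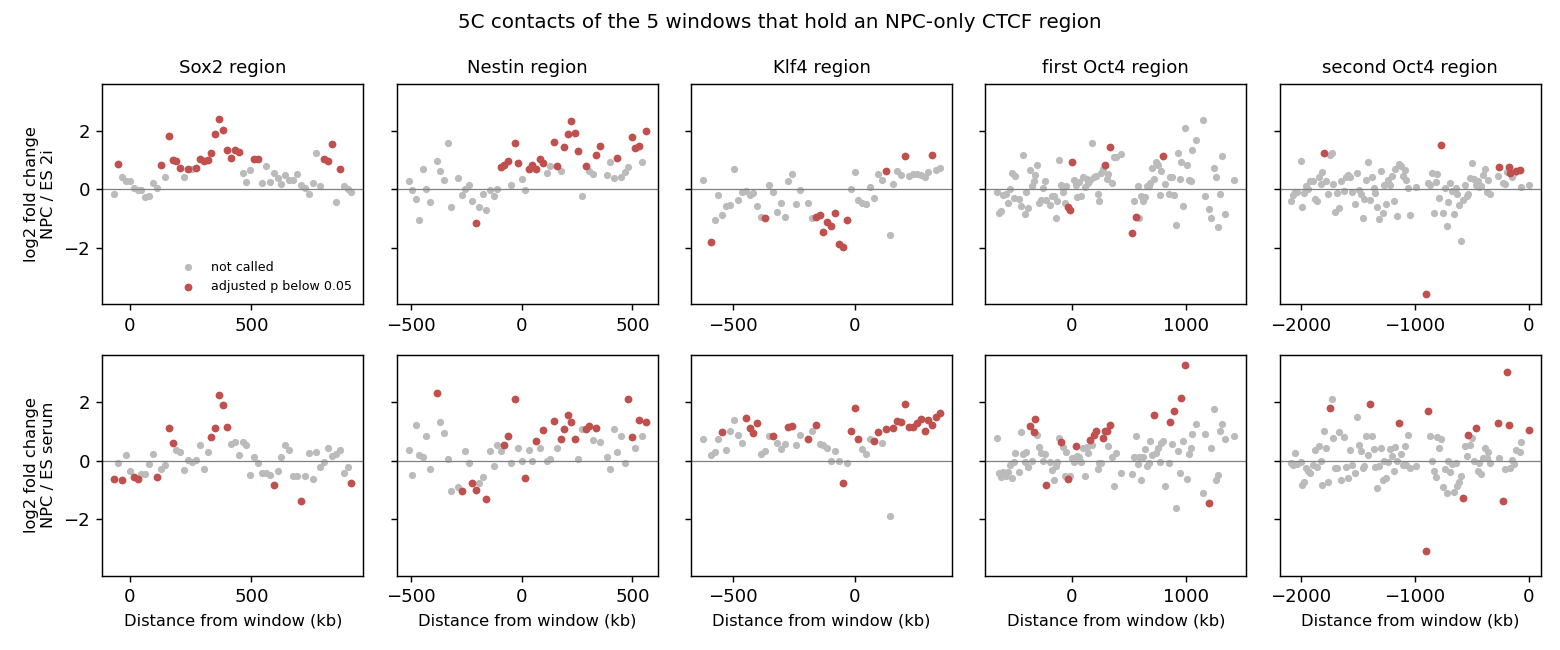
Log2 fold change of NPC over ES 2i (top row) and over ES serum (bottom row) for every tested pair of the 5 windows with an NPC-only region (y axis), by signed distance from the window (x axis, kb); red points have an edgeR adjusted p below 0.05. The Sox2 window rises to 2.41 and 2.23 at 368 kb. At the Klf4 window the called falls against 2i all lie at negative distances, and most points against serum lie above 0.

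Contacts named below are the largest called rise or fall of a locus among pairs whose CPM values (counts scaled to the library's total over tested pairs) did not overlap between the groups compared. CPM values leave the distance trend in, while log2 fold changes are relative to it. The size of a fold change can therefore differ from the ratio of the CPM values beside it. The contact of the Sox2 window with the window at chr3:34540880-34556879, 368 kb away, rose against both ES conditions. It took 17.2 and 20.7 CPM in 2i, 32.4 and 27.03 in serum, and 94.2 and 77.0 in NPCs. Both NPC libraries lay above all 4 ES libraries. The log2 fold change was 2.41 (SE 0.23, edgeR adjusted p = 5.44e-06) against 2i and 2.23 (SE 0.22, edgeR adjusted p = 3.37e-06) against serum. The partner window held 1 CTCF region, of the class in all 3 lists. A second Sox2 contact, 704 kb away, fell against serum with a log2 fold change of -1.38 (SE 0.37, edgeR adjusted p = 0.0108), from 12.6 and 12.03 CPM to 3.49 and 2.65. Its adjusted p was 0.0816 without ES serum replicate 1 and 0.0831 without NPC replicate 2. The 2i libraries, at 2.45 and 3.52 CPM, overlapped the NPC libraries.

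The largest rise of the Nestin window against 2i was with the window at chr3:88021088-88037087, 224 kb away. CPM values were 25.6 and 24.9 in 2i, 37.7 and 42.5 in serum and 80.1 and 75.7 in NPCs. The 3 groups did not overlap, with serum between 2i and NPCs. The log2 fold change was 2.34 (SE 0.19, edgeR adjusted p = 1.89e-06) against 2i and 1.31 against serum (edgeR adjusted p = 8.59e-05). The largest Nestin rise against serum, 384 kb away, rested on few reads: 28 and 11 counts in serum and 65 and 31 in NPCs, with a log2 fold change of 2.30 (SE 0.65, edgeR adjusted p = 0.014) and an adjusted p of 0.127 without NPC replicate 1 and 0.116 without ES serum replicate 2. The largest Nestin falls were -1.16 against 2i (SE 0.31, edgeR adjusted p = 0.0166) and -1.32 against serum (SE 0.33, edgeR adjusted p = 0.007), and neither held without every library: the first was at 0.0907 without ES 2i replicate 1, 0.0512 without ES 2i replicate 2 and 0.0811 without NPC replicate 2, and the second at 0.111 without ES serum replicate 2.

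At Klf4 the contact with the window at chr4:55475979-55491978, 48 kb away, was lower in NPCs than in both ES conditions. It took 107.8 and 124.4 CPM in 2i, 56.7 and 55.4 in serum and 17.4 and 27.6 in NPCs, and the 3 groups did not overlap. The log2 fold change was -1.97 (SE 0.19, edgeR adjusted p = 6.41e-06) against 2i and -0.76 (SE 0.19, edgeR adjusted p = 0.00649) against serum, the latter reaching an adjusted p of 0.0717 without ES serum replicate 1. The partner window held 1 CTCF region, of the class in both ES lists and not in NPCs. The largest rise against 2i was 1.18 (SE 0.23, edgeR adjusted p = 0.00237), 320 kb away. Against serum the largest rise was with the window at chr4:55731979-55747978, 208 kb away, which held no CTCF region. It took 20.4 and 23.7 CPM in serum, 38.2 and 44.5 in NPCs and 26.7 and 35.2 in 2i. Relative to the distance trend, the log2 fold change was 1.91 (SE 0.20, edgeR adjusted p = 6.1e-06) against serum and 1.13 (edgeR adjusted p = 0.00103) against 2i. A fit without that trend gave a smaller log2 fold change of 1.44 against serum.

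At Oct4 the second region's window lost contact with chr17:35614392-35630391, 896 kb away. Counts were low throughout, at 48 and 52 in 2i, 54 and 68 in serum and 3 and 4 in NPCs. The log2 fold change was -3.57 (SE 0.66, edgeR adjusted p = 0.00151) against 2i and -3.07 (SE 0.66, edgeR adjusted p = 0.00258) against serum. The named Oct4 rises depended on single libraries. The rise of 1.24 against 2i (SE 0.40, edgeR adjusted p = 0.0442) stayed below 0.05 in 1 of 6 fits that each left out a library and reached an adjusted p of 0.233 without ES 2i replicate 2. Larger called rises against 2i, of 1.44 and 1.505, were not named because their CPM values overlapped between the groups. That overlap is on the CPM scale and does not show that libraries disagree once the distance trend is taken out. The rise of 3.26 against serum (SE 0.96, edgeR adjusted p = 0.0176), from 2 and 4 counts to 13 and 17, reached 0.108 without ES serum replicate 1, 0.0682 without ES serum replicate 2 and 0.0758 without NPC replicate 2.

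The authors' classified table sorts pixels of 4 kb bins into looping classes by cell type. Of its 3942 looping pixels, 24 had an NPC-only region in a bin, and 9 of these, 37.5%, were of the class looping in NPCs alone, beside 18.1% of all looping pixels. Of those 9 pixels, 8 were at Sox2, and the 18.1% pools all 7 loci. The class was unevenly spread over loci: it held 252 of the 812 looping pixels with siRNA scores, 225 of them at Sox2. The 37.5% is thus not set against a share matched by locus. A further 6 of the 24 were of the class looping in serum and NPCs, beside 2.64% of all. Neighbouring pixels share counts, because the deposited bins step by 4 kb over wider windows. The 24 pixels therefore form few loops: all 6 of the serum and NPC class were 1 cluster at Nestin, and 7 of the 8 pixels at the Sox2 region were 1 cluster. No looping pixel joined NPC-only regions at both ends. Such a pixel was possible only at Oct4, the 1 locus with 2 members, which lay 1428 kb apart.

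The Sox2 region had the most looping pixels, 8, and all were of the NPC-only class. The deposited interaction score is −10 times log2 of a p-value for contact over local expectation. At the pixel 356 kb away, the score was 1.77 and 3.16 in 2i, 0.814 and 2.48 in serum, and 81.3 and 78.0 in NPCs. Over all 8 pixels NPC scores ran from 35.7 to 81.3 and ES scores from 0.0558 to 14.1, with no overlap, but the class was assigned by such scores. At the Klf4 region 1 pixel, 208 kb away, was of the NPC-only class, with scores of 46.5 and 48.3 in NPCs and at most 12.2 in ES cells, and 2 pixels were of the 2i-only class. The first Oct4 region had 3 constitutive pixels, 2 of the serum-only class and 1 of the 2i and NPC class, and the second had 1 constitutive pixel. The 5 regions thus met loops of several classes.

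The YY1 siRNA libraries hold the Sox2 and Klf4 regions. In edgeR's quasi-likelihood test 0 of 118 pairs with an NPC-only region were called in either direction, beside 0% of 3741 pairs rising and 0% falling. At an unadjusted p below 0.05 there were 11 of 118 and 373 of 3741, and DESeq2 with the same offsets called 4, all falls, or 3.39% beside 1.39% of all pairs. Without YY1 siRNA replicate 2, edgeR called 1 fall, or 0.84% beside 0.451% of all pairs. The median log2 fold change was -0.29 over 62 pairs of the Sox2 window and 0.11 over 56 pairs of the Klf4 window, beside 0.06 and 0.05 over all pairs of these loci. The Sox2 contact that was highest in NPCs changed by -0.77 with an edgeR adjusted p of 0.475. The spread between replicates was wide, with a biological coefficient of variation of 0.376 against 0.1995 in the untreated libraries.

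In the deposited scores, 8 of the 11 looping pixels with an NPC-only region were lower in both YY1 siRNA libraries than in both control libraries and 0 were higher, beside 23.5% lower and 14.3% higher among all 812 looping pixels with scores. Of these 11 pixels 9 were of the NPC-only class, 8 of them at Sox2, and 40.5% of the 252 pixels of that class were lower, as were 38.7% of its 225 pixels at Sox2. This comparison was added after the scores were seen. At the Sox2 pixel 356 kb away the scores were 37.8 and 37.0 with control siRNA and 8.90 and 30.7 with YY1 siRNA, so 1 YY1 library lay close to the controls. At the Klf4 pixel they were 38.8 and 27.8 with control siRNA and 17.7 and 14.3 with YY1 siRNA. Not every pixel counted as lower had a high control score. At the Sox2 pixel 372 kb away the scores were 2.83 and 6.19 with control siRNA and 2.47 and 1.78 with YY1 siRNA. At the Sox2 pixel 160 kb away they were 10.6 and 15.5 with control siRNA and 4.34 and 4.17 with YY1 siRNA. The 8 pixels come from few loops, and YY1 siRNA libraries had 4419309 and 12993781 counts against 5792078 and 6251316 in controls, whose part in the scores was not tested. These libraries were made by an in situ 3C method, unlike the untreated ones, and were normalised apart from them.

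**Figure D5:**
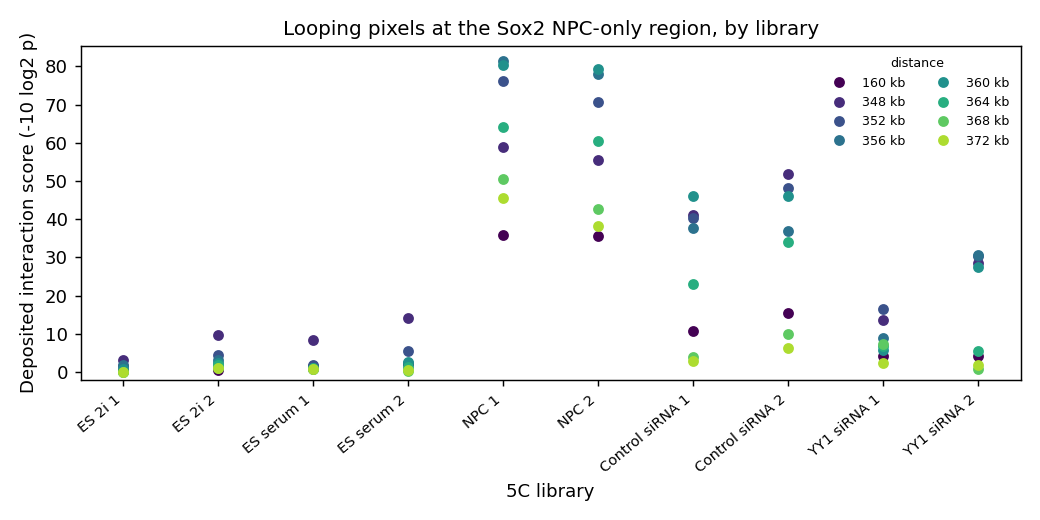
Deposited interaction score (y axis, −10 log2 p) of the 8 looping pixels at the Sox2 NPC-only region in each of the 10 5C libraries (x axis), coloured by distance from the region in kb; each point is 1 pixel. Scores reach 81.3 in NPCs and at most 14.1 in ES cells.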

How the data were processed

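The authors used MACS2 to call CTCF peaks, with mm9 as the build (names from the submitters' processing notes). Each deposited list holds a fold enrichment (a ratio), a −log10 p and a −log10 q for every peak, and their names point to downsampled reads. The deposited 5C tables hold raw counts per primer pair (Bowtie, per the same notes), and the authors' interaction score and p-value per bin pair; 39 columns of per-sample values were not used. Members and lists were chosen with earlier results of these data known. Counts were summed over 16 kb windows and filtered with filterByExpr, scaled by TMM and a loess distance trend per library and locus, and tested with edgeR 4.0.16 in R 4.3.3 with Benjamini-Hochberg adjustment over all pairs; the steps were tested on simulated data. Pairs of a window with itself were kept, as designed. A fit without them was run as well, after results had been seen. Named pairs are the largest called rise and fall per locus and comparison with CPM values that do not overlap between groups. Labels do not say that replicates came from separate cultures or animals, so p-values measure the spread between these libraries. Replicates of a group differed by more than counting noise. The growth text of the control siRNA libraries conflicts with their titles, and the titles were used. Intervals cover counting error only. DESeq2 1.42.0 was an alternative.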

Additional observations from a re-analysis of the deposited data

How the results depend on the processing

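The number of NPC-only regions, 1119, depended most on the thresholds: it was 740 with a −log10 q of at least 20 in every list, 355 with that minimum in the NPC list alone, and 5183 when the lists were cut to equal length. The percentile of the median fold enrichment, 19.6, was 15.9 by −log10 q, 23.8 with a −log10 q of at least 20 and 19.1 with peaks within 1000 bp merged. The share with another NPC-only region within 10 kb, 3.57%, was 9.38% within 50 kb and 2.42% with peaks within 1000 bp merged. The called pairs against serum, 102, were 66 with 32 kb windows, where 216 pairs with a member were tested and not 407; the share called was 30.6% beside 40.6% of all pairs, and 25.1% beside 29.3% with 16 kb windows. Leaving out 1 library each gave 42 to 77 called pairs against 2i, 51 to 101 against serum and 0 to 1 for YY1 siRNA; the lowest counts came without ES 2i replicate 1 (42), without ES serum replicate 2 (51) and without ES serum replicate 1 (61), and the 1 YY1 call came without YY1 siRNA replicate 2. For YY1 siRNA, DESeq2 with the same offsets called 4. Replicate numbers share no batch in the labels and their deviations correlated by 0.0211 to 0.0855, so they do not pair the libraries; with a replicate block, 96 pairs were called against 2i, 115 against serum and 1 for YY1 siRNA. Pairs of 2 different windows only, an alternative added after a fit with all pairs, gave 79 of 400 against 2i, 97 of 400 against serum and 0 of 116 for YY1 siRNA. In all, 41 of 56 alternative values of these results stayed within their limits. Of 194 alternative values of named pairs, 176 kept direction and call and 18 kept direction but lost the call, and the cause was not tested. The 194 leave out the Oct4 fall of -3.57 against 2i under DESeq2 with the same offsets, which gave it no adjusted p. The ChIP depth is not known from the lists, and the lack of a second ChIP library limits every statement on binding.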
